A study of Homo sapiens with 18 samples.

Results

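Base excision repair was followed through 10 of its genes in MDA-MB-231 cells that lacked IMPDH2, had it put back, or were fed guanosine. They were taken by their gene symbols from the deposited count table, and comprised the DNA glycosylases OGG1, MUTYH, NTHL1, NEIL1, NEIL2, NEIL3, UNG and TDG, the endonuclease APEX1 and the polymerase POLB. The 10 genes hold 173 of the 252048 annotated transcripts and are 10 of the 62749 genes in the table. All 10 passed the filter on low counts, with between 136 estimated counts (NEIL1) and 16269 (APEX1) in a library.

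Base excision repair removes small lesions such as oxidised, deaminated or mismatched bases. A glycosylase recognises its lesion and cuts the base from the sugar, APEX1 nicks the strand at the site left without a base, and POLB fills the gap before a ligase closes it. In the long-patch branch, the replication polymerases, PCNA, FEN1 and LIG1 take over from POLB. The glycosylases divide the work. OGG1 and MUTYH deal with 8-oxoguanine and the adenine mispaired to it, NTHL1 and the NEIL enzymes with oxidised pyrimidines, UNG with uracil, and TDG with thymine or uracil mispaired to guanine and with oxidised forms of methylcytosine.

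MDA-MB-231 is a triple-negative breast cancer line. The growth protocol names it for every sample, whereas the cell line labels count upward from it by 1 per sample, and the genotype labels of the nuclear and cytosolic groups count upward from IMPDH2 in the same way. All 18 samples were taken as this line and every rescue as IMPDH2, as the titles have it. IMPDH2, inosine monophosphate dehydrogenase, catalyses the rate-limiting step in making guanine nucleotides, and guanosine supplies the same nucleotides by salvage. Messenger RNA was sequenced from KO cells given back IMPDH2 with no localisation named (KO+IMPDH2), from KO cells given a nuclear form (KO+Nuclear-IMPDH2) or a cytosolic form (KO+Cyt-IMPDH2), from KO cells grown in 400 µM guanosine (KO+guanosine), from KO cells without guanosine (KO), and from unedited cells without guanosine (WT). Each group had 3 libraries, 18 in all, and the 5 KO-derived groups share the loss of the endogenous gene. Whether the KO line is a clone, how IMPDH2 was put back, and whether separate cultures stand behind the 3 libraries is not stated in the labels, so each p measures the spread between these libraries, which may be technical. Totals ran between 45865079 and 63276484 estimated counts per library. Levels are TMM-scaled CPM unless stated, ± is the SD of n = 3 libraries, and a gene was called higher or lower at a Benjamini-Hochberg adjusted p under 0.05 over 19252 genes in edgeR's quasi-likelihood test. IMPDH2 itself averaged 532 ± 10 CPM in KO+IMPDH2, 297 ± 13 in KO+Nuclear-IMPDH2, 379 ± 14 in KO+Cyt-IMPDH2, 22.1 ± 0.11 in KO+guanosine, 41.6 ± 0.57 in KO and 319 ± 0.56 in WT cells, which fits the labels. Of the line's markers, VIM had at least 3400 CPM of library totals, whereas ESR1 had at most 0.26, PGR at most 0.064 and CDH1 at most 0.17. ERBB2 had 64.0 to 85.0. Among markers of other cell types, PTPRC had at most 0.4 and PECAM1 between 3.0 and 11. In bulk RNA, fewer cells of a kind and less RNA per cell cannot be told apart.

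The 10 genes spanned a wide range of levels. On the TPM scale, which is per length and so can be compared between genes, the median over the 18 libraries was 216 for APEX1, 84.6 for UNG, 36.8 for TDG and 22.7 for POLB. It was 18.3 for NTHL1, 15 for OGG1, 12.7 for MUTYH, 10.7 for NEIL3, 4.9 for NEIL2 and 2.44 for NEIL1. The enzyme that acts on every abasic site thus had the most transcripts per length, and NEIL1 and NEIL2 the fewest. The TPM ranges of APEX1 (153 to 236) and UNG (59.6 to 106) did not meet.

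NEIL3 (ENSG00000109674.4), which removes oxidised bases from single-stranded and replication-associated DNA, and UNG (ENSG00000076248.12), which removes uracil and in its nuclear form works at replication forks, were the glycosylases that guanosine raised most. NEIL3 had 25.5, 23.8 and 27.5 CPM in KO+guanosine libraries, against 11.7, 12.1 and 12.8 in KO libraries. The groups were far apart, and the fold change was 2.09 (log2 1.07, SE 0.052, adjusted p = 6.56e-12). In absolute size this log2 change exceeded that of 91.1% of all tested genes. UNG had 184, 185 and 184 CPM in KO+guanosine libraries, against 131, 125 and 133 in KO libraries. The change was 1.42-fold (log2 0.51, SE 0.025, adjusted p = 7.95e-12), without overlap.

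The promoter windows of NEIL3 and UNG are shown because these genes moved together in KO cells given guanosine or IMPDH2, and that of OGG1 because it moved the opposite way in the same cells. They are the RefSeq sequences of GRCh38.p14, 300 bases on the plus strand, from 250 before the annotated start to 50 after it. Capitals mark letters searched on both strands, namely the E2F letters TTTCCCGC, TTTCGCGC, TTTGCCGC and TTTGGCGC, the cell cycle homology letters TTTGAA and TTCGAA, and CCAAT. A match on the minus strand stands as its reverse complement. UNG has separate windows for the start of its nuclear form, UNG2, and that of its mitochondrial form, UNG1.
NEIL3, chr4:177309624-177309923: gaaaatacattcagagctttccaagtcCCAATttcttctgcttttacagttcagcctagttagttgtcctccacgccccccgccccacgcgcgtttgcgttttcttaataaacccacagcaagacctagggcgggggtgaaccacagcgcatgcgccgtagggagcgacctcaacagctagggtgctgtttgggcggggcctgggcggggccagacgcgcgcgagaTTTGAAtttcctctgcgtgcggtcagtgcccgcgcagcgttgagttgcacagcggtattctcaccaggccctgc
UNG at the UNG2 start, chr12:109097347-109097646: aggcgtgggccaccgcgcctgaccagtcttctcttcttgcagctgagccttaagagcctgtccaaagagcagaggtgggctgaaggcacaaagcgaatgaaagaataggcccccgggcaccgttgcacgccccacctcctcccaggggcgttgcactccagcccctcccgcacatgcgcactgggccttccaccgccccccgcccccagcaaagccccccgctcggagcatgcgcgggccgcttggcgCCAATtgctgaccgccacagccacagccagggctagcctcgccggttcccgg
UNG at the UNG1 start, chr12:109097922-109098221: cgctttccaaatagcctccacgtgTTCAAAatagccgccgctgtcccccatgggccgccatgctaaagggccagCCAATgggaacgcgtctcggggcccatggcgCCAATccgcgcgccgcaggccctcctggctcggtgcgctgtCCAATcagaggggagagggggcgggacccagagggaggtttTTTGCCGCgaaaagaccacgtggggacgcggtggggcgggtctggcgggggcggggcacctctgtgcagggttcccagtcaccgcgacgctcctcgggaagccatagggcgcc
OGG1, chr3:9749702-9750001: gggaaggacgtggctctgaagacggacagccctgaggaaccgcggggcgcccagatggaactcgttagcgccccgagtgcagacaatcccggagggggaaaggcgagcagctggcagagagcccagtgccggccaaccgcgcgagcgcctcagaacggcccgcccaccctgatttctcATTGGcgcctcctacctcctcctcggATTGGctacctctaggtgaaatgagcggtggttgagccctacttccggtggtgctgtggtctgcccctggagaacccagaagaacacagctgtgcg

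In these windows the NEIL3 promoter held TTTGAA beginning 24 bases before the start and CCAAT at 223 bases before it, with no E2F letters. The UNG2 window held CCAAT alone, beginning 2 bases before the start. The UNG1 window held TTTGCCGC at 63 bases before the start, TTTGAA on the minus strand at 226, and CCAAT at 176, 145 and 104. The OGG1 window held CCAAT on the minus strand at 72 and 46 bases before the start and neither of the other motifs. Of the 35116 windows in the RefSeq table, 3.31% held the E2F letters, 16.4% the cell cycle homology letters and 34.6% CCAAT. The search covered 13 windows of 8 genes. None of the windows not printed here held the E2F letters, and among them 1 of MUTYH's 3 held TTTGAA.

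**Figure D1:**
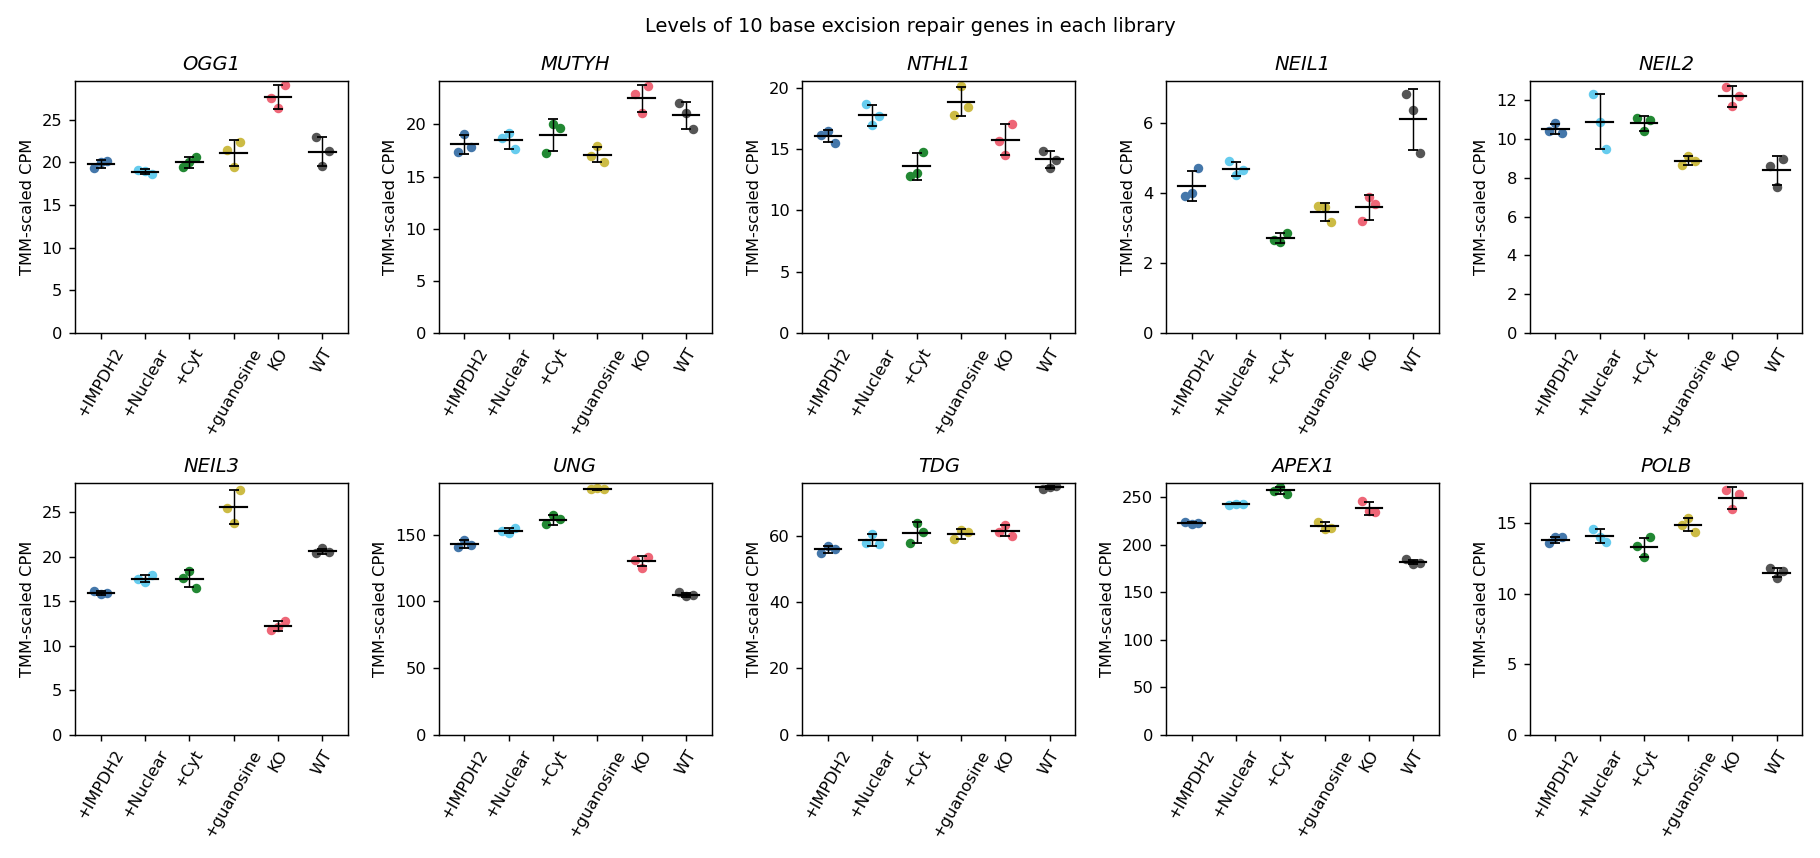
TMM-scaled CPM of the 10 genes in every library, with 3 points per group, a line at the mean and bars of 1 SD (n = 3), where a plus sign marks KO cells given that form of IMPDH2 or guanosine. NEIL3 and UNG are highest in KO+guanosine cells, OGG1 and POLB stand highest in KO cells, and TDG and NEIL1 stand highest in WT cells.

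NEIL3 and UNG differed in opposite directions between KO and WT cells. Whether the loss of IMPDH2 or another difference between these cells lies behind this was not tested. NEIL3 fell to 12.2 ± 0.52 CPM in KO cells, against 20.6 ± 0.29 in WT cells, a log2 change of -0.76 (SE 0.052, adjusted p = 2.52e-10). UNG rose to 130 ± 3.8 CPM in KO cells, against 105 ± 1.6 in WT cells, a log2 change of 0.30 (SE 0.025, adjusted p = 4.33e-09), or 0.46 with library totals. Neither pair of groups overlapped.

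Each form of IMPDH2 raised both genes over KO. NEIL3 averaged 15.9 ± 0.17 CPM in KO+IMPDH2, 17.5 ± 0.4 in KO+Nuclear-IMPDH2 and 17.5 ± 0.95 in KO+Cyt-IMPDH2 cells, against 12.2 ± 0.52 in KO cells. The log2 changes were 0.38, 0.52 and 0.52 in that order, with adjusted p of 7.74e-06, 1.64e-07 and 1.78e-07. UNG averaged 143 ± 3.1, 153 ± 1.9 and 161 ± 3.6 CPM in the same groups, against 130 ± 3.8 in KO cells. Its log2 changes were 0.14, 0.24 and 0.32. With library totals in place of TMM scaling, that of KO+IMPDH2 over KO was 0.06 and did not pass (adjusted p = 0.0539).

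Ordered by mean, NEIL3 was highest in KO+guanosine, then WT, then the groups given IMPDH2, and lowest in KO cells. The steps from KO+Cyt-IMPDH2 to KO+Nuclear-IMPDH2 and from KO+Nuclear-IMPDH2 to KO+IMPDH2 did not pass the test, and each other step did. UNG ran from KO+guanosine through KO+Cyt-IMPDH2, KO+Nuclear-IMPDH2, KO+IMPDH2 and KO to WT, and all 5 steps passed, although that of KO+Cyt-IMPDH2 over KO+Nuclear-IMPDH2 (log2 0.08, adjusted p = 0.0317) was lost when any of 5 single libraries was left out, and that of KO+IMPDH2 over KO with library totals. The highest mean was 2.10 times the lowest for NEIL3 and 1.75 times for UNG.

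Over KO, the cell cycle markers moved with these genes. All 8 proliferation markers (MKI67, TOP2A, CDK1, CCNB1, PLK1, BIRC5, CCNA2 and AURKA) were lower in KO than in WT cells and higher than KO in KO+guanosine and in each group given IMPDH2. Their summed level was 1610 to 1650 CPM in KO+IMPDH2, 1700 to 1740 in KO+Nuclear-IMPDH2, 1520 to 1620 in KO+Cyt-IMPDH2, 2100 to 2140 in KO+guanosine, 792 to 826 in KO and 2440 to 2520 in WT libraries. Of 8 S-phase markers (MCM2 to MCM7, CCNE2 and RRM2), 7 were lower and 1 was higher in KO than in WT cells, and all 8 were higher than KO in KO+guanosine and in each group given IMPDH2. Their sum was 1520 to 1560 CPM in KO+guanosine, 929 to 965 in KO and 1400 to 1410 in WT libraries. NEIL3 followed the direction of both lists in these 5 comparisons, whereas UNG was higher in KO than in WT cells while both sums were lower. Treated groups set against WT were mixed. With guanosine NEIL3 was higher (log2 0.31), with 6 S-phase markers higher and 2 lower, but 0 proliferation markers higher and 6 lower. In each group given IMPDH2, NEIL3 and all 8 proliferation markers were lower. Of the S-phase markers, 3 (KO+IMPDH2), 4 (KO+Nuclear-IMPDH2) and 5 (KO+Cyt-IMPDH2) were higher there, and 2 lower in each. The part of cell cycling in these results was not tested.

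**Figure D2:**
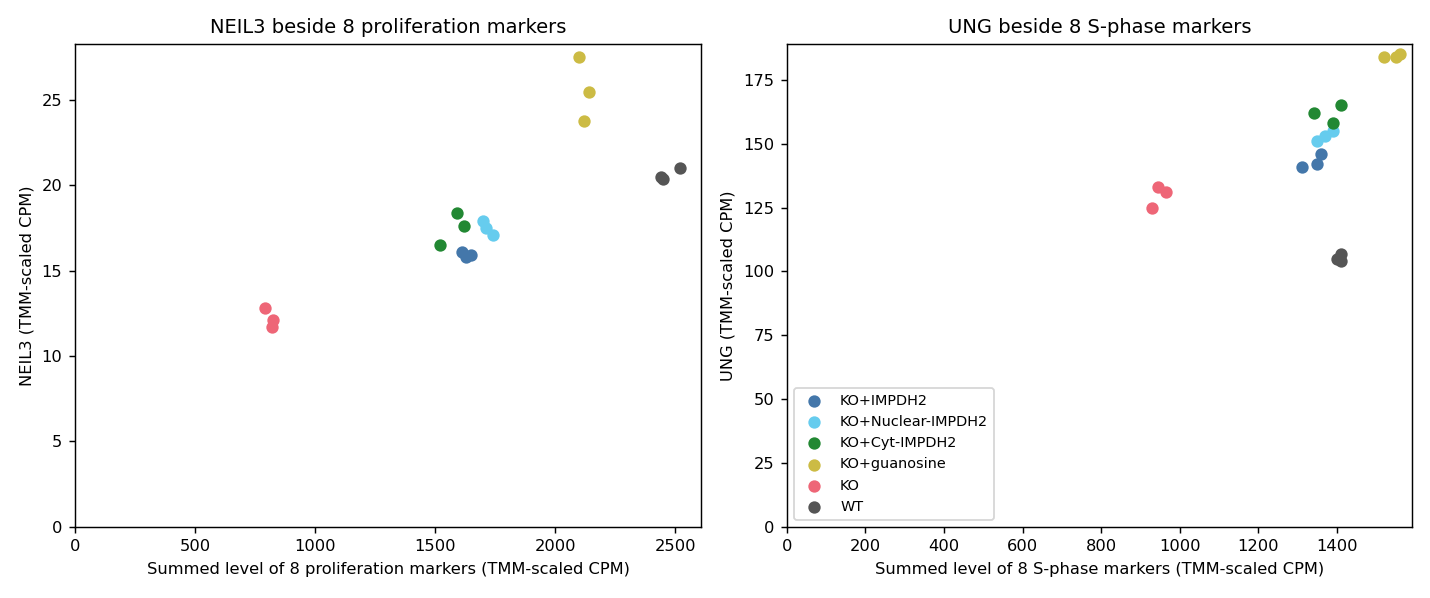
NEIL3 against the summed CPM of 8 proliferation markers (left) and UNG against the summed CPM of 8 S-phase markers (right), with 1 point per library. KO libraries lie lowest on both marker sums, and WT libraries have the lowest UNG (about 105 CPM) at an S-phase sum of 1400 to 1410 CPM.

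UNG is read from alternative starts. UNG-201, whose protein of 313 residues is UNG2, took 90.8 to 94.2% of the gene's estimated counts as a group mean. UNG-202, with 304 residues, the length of UNG1, took 5.6% ± 0.6 in KO+IMPDH2, 4.5% ± 0.5 in KO+Nuclear-IMPDH2, 5.2% ± 0.9 in KO+Cyt-IMPDH2, 2.9% ± 0.4 in KO+guanosine, 5.0% ± 1.1 in KO and 4.1% ± 0.2 in WT cells. In CPM of library totals, UNG-201 had 174, 176 and 175 in KO+guanosine libraries, against 126, 123 and 128 in KO libraries. UNG-202 had 4.85, 4.81 and 6.26 in KO+guanosine libraries, against 7.75, 5.04 and 7.96 in KO libraries. The higher UNG level with guanosine thus lay in the nuclear form, while the libraries of the mitochondrial form overlapped. These splits are the authors' Salmon estimates and carry no test here.

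OGG1 (ENSG00000114026.22), which excises 8-oxoguanine, was higher in KO than in WT cells and lower than KO in every treated group. It had 27.5, 26.3 and 29 CPM in KO libraries, against 22.9, 19.5 and 21.3 in WT libraries, which do not overlap. The log2 change was 0.38 (SE 0.057, adjusted p = 8.75e-06). In the libraries given back IMPDH2, OGG1 had 19.3, 20 and 20.2 CPM in KO+IMPDH2, 19.1, 19 and 18.6 in KO+Nuclear-IMPDH2 and 19.4, 20 and 20.6 in KO+Cyt-IMPDH2. KO+guanosine libraries had 21.4, 19.4 and 22.4 CPM. All 12 of these libraries lay below the 3 KO libraries, and the log2 changes over KO were -0.48, -0.55, -0.47 and -0.39 in the order of the groups just given, with the largest adjusted p at 1.08e-05 for guanosine. With an offset for average transcript length, the change with guanosine was -0.26 and did not pass (adjusted p = 0.0658), while that in KO+IMPDH2 was -0.81 and that in KO+Cyt-IMPDH2 -0.30, both called. KO+guanosine differed from WT by a log2 of -0.01 (SE 0.058, adjusted p = 0.853).

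MUTYH (ENSG00000132781.21), which removes adenine paired with 8-oxoguanine, followed OGG1 below KO but not above WT. It averaged 18.1 ± 0.89 CPM in KO+IMPDH2, 18.5 ± 0.81 in KO+Nuclear-IMPDH2, 19.0 ± 1.5 in KO+Cyt-IMPDH2 and 17.1 ± 0.74 in KO+guanosine, against 22.5 ± 1.3 in KO cells, and fell in all 4 comparisons (log2 -0.32, -0.29, -0.25 and -0.40, largest adjusted p = 0.00312). KO over WT was 22.5 ± 1.3 against 20.9 ± 1.3 CPM and missed the threshold (log2 0.11, SE 0.063, adjusted p = 0.135). That call moved with the processing. It passed with library totals (0.27, adjusted p = 0.00113), with coding transcripts alone (0.63, adjusted p = 0.000915), without WT replicate 1 (0.17, adjusted p = 0.0412) and without KO replicate 2 (0.15, adjusted p = 0.0496). With coding transcripts alone the changes over KO were larger, at -0.45 in KO+IMPDH2, -0.52 (adjusted p = 0.00611) in KO+Nuclear-IMPDH2, -0.43 (adjusted p = 0.0195) in KO+Cyt-IMPDH2 and -0.99 (adjusted p = 2.44e-05) in KO+guanosine cells, all called. Those transcripts summed to 7.81, 8.54 and 10.3 CPM of library totals in KO+guanosine libraries, against 18.1 in each KO library. With the length offset, the changes over KO were -0.50 (adjusted p = 0.0336) in KO+IMPDH2, -0.38 (adjusted p = 0.0939) in KO+Nuclear-IMPDH2, -0.32 (adjusted p = 0.164) in KO+Cyt-IMPDH2 and -0.07 (adjusted p = 0.794) in KO+guanosine cells. Coding transcripts took 45.7 to 81.1% of its estimated counts per library.

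The oxidised-pyrimidine glycosylases did not move as a block. NEIL2 (ENSG00000154328.16), which acts on oxidised cytosines and on bubble structures, rose in KO and came down with guanosine. It had 12.7, 11.7 and 12.2 CPM in KO libraries, against 8.63, 7.52 and 8.98 in WT libraries (log2 0.54, SE 0.079, adjusted p = 6.58e-06). KO+guanosine libraries had 8.68, 9.12 and 8.87 CPM, all below KO (log2 -0.45, SE 0.079, adjusted p = 7.7e-05) and overlapping WT. The groups given IMPDH2 lay between, at 10.5 ± 0.26 CPM in KO+IMPDH2, 10.9 ± 1.4 in KO+Nuclear-IMPDH2 and 10.8 ± 0.38 in KO+Cyt-IMPDH2 cells. Of these the change in KO+IMPDH2 passed (log2 -0.22, adjusted p = 0.0243), and it no longer did without KO replicate 1 (-0.18, adjusted p = 0.111), KO replicate 3 (-0.22, adjusted p = 0.0534), KO+IMPDH2 replicate 1 (-0.21, adjusted p = 0.0603) or KO+IMPDH2 replicate 3 (-0.21, adjusted p = 0.0656). The others were -0.16 (SE 0.077, adjusted p = 0.091) and -0.17 (SE 0.077, adjusted p = 0.076). With library totals they were -0.24 and -0.26 and both passed, and in the 6 compared libraries alone the second did (-0.16, adjusted p = 0.0474). With the length offset, that of KO+IMPDH2 did not (-0.22, adjusted p = 0.0558). The nuclear change also passed without KO+Nuclear-IMPDH2 replicate 1, at -0.26 (adjusted p = 0.00829), the library with the highest NEIL2 level of its group.

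NTHL1 (ENSG00000065057.9), a bifunctional glycosylase for oxidised pyrimidines, had its highest mean in KO+guanosine cells. It had 17.8, 20.2 and 18.5 CPM in KO+guanosine libraries, against 15.7, 14.5 and 17.1 in KO libraries (log2 0.26, SE 0.067, adjusted p = 0.00292). KO+Nuclear-IMPDH2 libraries had 18.7, 17.0 and 17.7 CPM, and KO+Cyt-IMPDH2 libraries had 12.8, 13.1 and 14.8. Both overlapped KO. The change over KO was 0.17 (adjusted p = 0.0356) with nuclear IMPDH2 and -0.21 (adjusted p = 0.0131) with cytosolic IMPDH2. The nuclear call was lost without KO replicate 1 (0.18, adjusted p = 0.065), KO replicate 2 (0.12, adjusted p = 0.182) or replicate 1 (0.13, adjusted p = 0.159) or 3 (0.18, adjusted p = 0.0729) of its own group, and with library totals (0.09, adjusted p = 0.287) or coding transcripts alone (0.11, adjusted p = 0.174). The cytosolic call was lost without KO replicate 3 (-0.15, adjusted p = 0.0928) or replicate 1 (-0.18, adjusted p = 0.0627) or 2 (-0.19, adjusted p = 0.053) of its own group. In the fit of the 6 compared libraries alone it was -0.21 (adjusted p = 0.0508). KO+IMPDH2 cells had 16.1 ± 0.49 CPM, a log2 of 0.03 over KO (SE 0.067, adjusted p = 0.759). KO over WT was 15.8 ± 1.3 against 14.2 ± 0.7 CPM, close to the threshold (log2 0.15, SE 0.068, adjusted p = 0.0513). It passed with library totals (0.31), coding transcripts alone (0.29), the length offset (0.18) or no filter (0.16), and without WT replicate 1 (0.21, adjusted p = 0.0223) or KO replicate 2 (0.21, adjusted p = 0.0132).

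NEIL1 (ENSG00000140398.14), which removes oxidised pyrimidines and ring-opened purines, fell in KO and in CPM stayed low with guanosine. It had 3.2, 3.89 and 3.67 CPM in KO libraries, against 6.82, 6.36 and 5.14 in WT libraries (log2 -0.77, SE 0.11, adjusted p = 4.38e-06). KO+guanosine libraries had 3.63, 3.59 and 3.17 CPM and overlapped KO (log2 -0.05, SE 0.11, adjusted p = 0.727). On the TPM scale, KO+guanosine cells had 2.6 ± 0.66 and KO cells 1.71 ± 0.38, also with overlap. With the length offset, KO+guanosine over WT was -0.74 and did not pass (adjusted p = 0.0708). NEIL1 was higher than KO in KO+Nuclear-IMPDH2 cells and lower than KO in KO+Cyt-IMPDH2 cells. KO+Nuclear-IMPDH2 libraries had 4.9, 4.51 and 4.65 CPM (log2 0.39, SE 0.11, adjusted p = 0.00606), and KO+Cyt-IMPDH2 libraries had 2.65, 2.61 and 2.85 (log2 -0.41, SE 0.11, adjusted p = 0.00553). KO+IMPDH2 libraries had 3.91, 3.99 and 4.71 CPM (log2 0.23, SE 0.11, adjusted p = 0.0927). The NEIL1 counts were mostly not from coding transcripts. Retained-intron transcripts took 81.3% of them as a mean of 18 libraries and coding transcripts 16.6%, with 7.5 to 27.3% in single libraries. With coding transcripts alone, the changes were -0.52 for KO over WT (adjusted p = 0.252), 0.33 for KO+Nuclear-IMPDH2 over KO (adjusted p = 0.527) and -0.40 for KO+Cyt-IMPDH2 over KO (adjusted p = 0.452). None of these passed, and with the length offset the change of KO+Cyt-IMPDH2 over KO turned to 0.37 (adjusted p = 0.428), while KO over WT was -1.35 and KO+Nuclear-IMPDH2 over KO 0.89, both called. The coding transcripts summed to 0.65, 0.696 and 0.748 CPM of library totals in KO libraries, against 1.16, 1.1 and 0.588 in WT libraries, which overlap.

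**Figure D3:**
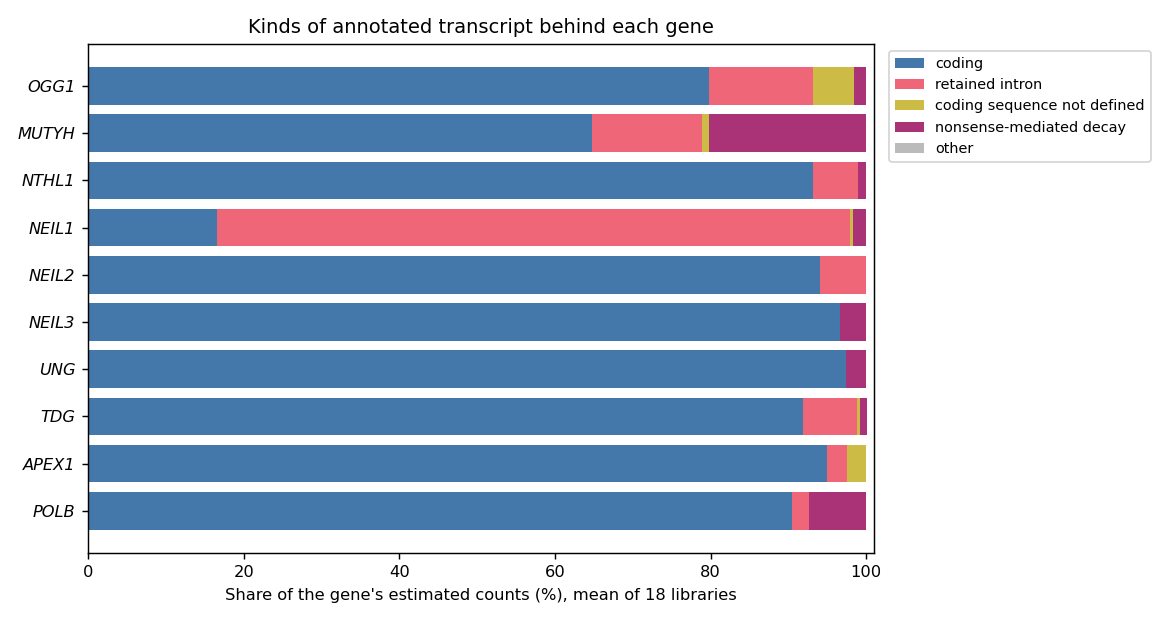
Share of each gene's estimated counts by kind of annotated transcript, as the mean of 18 libraries. NEIL1 is mostly retained-intron transcript (81.3%), MUTYH has 20.2% of nonsense-mediated decay transcripts, and the other 8 genes have at least 79.8% from coding transcripts.

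TDG (ENSG00000139372.15), which also takes part in active DNA demethylation, was highest in WT cells. It had 61.3, 63.4 and 60 CPM in KO libraries, against 74.1, 74.6 and 75.0 in WT libraries (log2 -0.28, SE 0.034, adjusted p = 8.79e-07). With library totals this was -0.12 (adjusted p = 0.00652). No treated group was called higher than KO. KO+IMPDH2 cells had 55.9 ± 1.1 CPM and were lower than KO (log2 -0.14, SE 0.035, adjusted p = 0.00295; -0.22 with library totals). KO+Nuclear-IMPDH2 had 58.7 ± 1.7, KO+Cyt-IMPDH2 61.0 ± 3.1 and KO+guanosine 60.6 ± 1.5 CPM, with log2 changes over KO of -0.07 (adjusted p = 0.118), -0.01 (adjusted p = 0.808) and -0.02 (adjusted p = 0.643). With library totals those were -0.15, -0.10 and -0.09, and each passed (adjusted p = 0.0016, 0.0243 and 0.0478). The first also passed without KO+Nuclear-IMPDH2 replicate 2 (-0.10, adjusted p = 0.0484) and with coding transcripts alone (-0.12, adjusted p = 0.0236).

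APEX1 (ENSG00000100823.12), the main abasic-site endonuclease and a redox regulator of transcription factors, rose in KO and stayed above WT in each treated group. It had 246, 235 and 234 CPM in KO libraries, against 185, 180 and 181 in WT libraries (log2 0.39, SE 0.023, adjusted p = 2.23e-11). Over KO, it fell to 223 ± 0.84 CPM in KO+IMPDH2 (log2 -0.09, adjusted p = 0.0018) and 219 ± 4.3 in KO+guanosine (log2 -0.12, adjusted p = 0.000161), and rose to 257 ± 3.9 in KO+Cyt-IMPDH2 (log2 0.11, adjusted p = 0.000475). KO+Nuclear-IMPDH2 cells had 243 ± 0.63 CPM, a log2 of 0.03 (adjusted p = 0.294). These steps over KO were small. With library totals the KO+Cyt-IMPDH2 value was 0.02 (adjusted p = 0.411), and the KO+Nuclear-IMPDH2 value was -0.05 (adjusted p = 0.0321), a called change of the other sign. Without KO replicate 1 the KO+Nuclear-IMPDH2 value was 0.06 (adjusted p = 0.0231). The changes in KO+IMPDH2 and KO+guanosine were -0.17 and -0.19 with library totals. With the length offset, they were -0.01 (adjusted p = 0.896) in KO+IMPDH2 and -0.03 (adjusted p = 0.478) in KO+guanosine cells, and with no filter the change in KO+IMPDH2 was -0.07 (adjusted p = 0.117).

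POLB (ENSG00000070501.12), the gap-filling polymerase, was also higher in KO than in WT cells and lower than KO in every treated group. It had 17.4, 16.0 and 17.1 CPM in KO libraries, against 11.8, 11.1 and 11.6 in WT libraries (log2 0.55, SE 0.048, adjusted p = 7.71e-09). It was lower than KO in KO+IMPDH2 (13.8 ± 0.22 CPM, log2 -0.28), in KO+Nuclear-IMPDH2 (14.1 ± 0.47, log2 -0.25), in KO+Cyt-IMPDH2 (13.3 ± 0.68, log2 -0.34) and in KO+guanosine cells (14.9 ± 0.47, log2 -0.17), with the largest adjusted p at 0.00455. No treated library reached the lowest KO library. POLB stayed above WT in all 4 treated groups (log2 0.27, 0.30, 0.21 and 0.38 in the same order, largest adjusted p = 0.000937). With the length offset, 3 of the 4 changes over KO did not pass, at -0.26 (adjusted p = 0.0878) in KO+IMPDH2, -0.28 (adjusted p = 0.068) in KO+Nuclear-IMPDH2 and -0.03 (adjusted p = 0.841) in KO+guanosine cells. With coding transcripts alone the last was -0.30 (adjusted p = 0.0091).

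**Figure D4:**
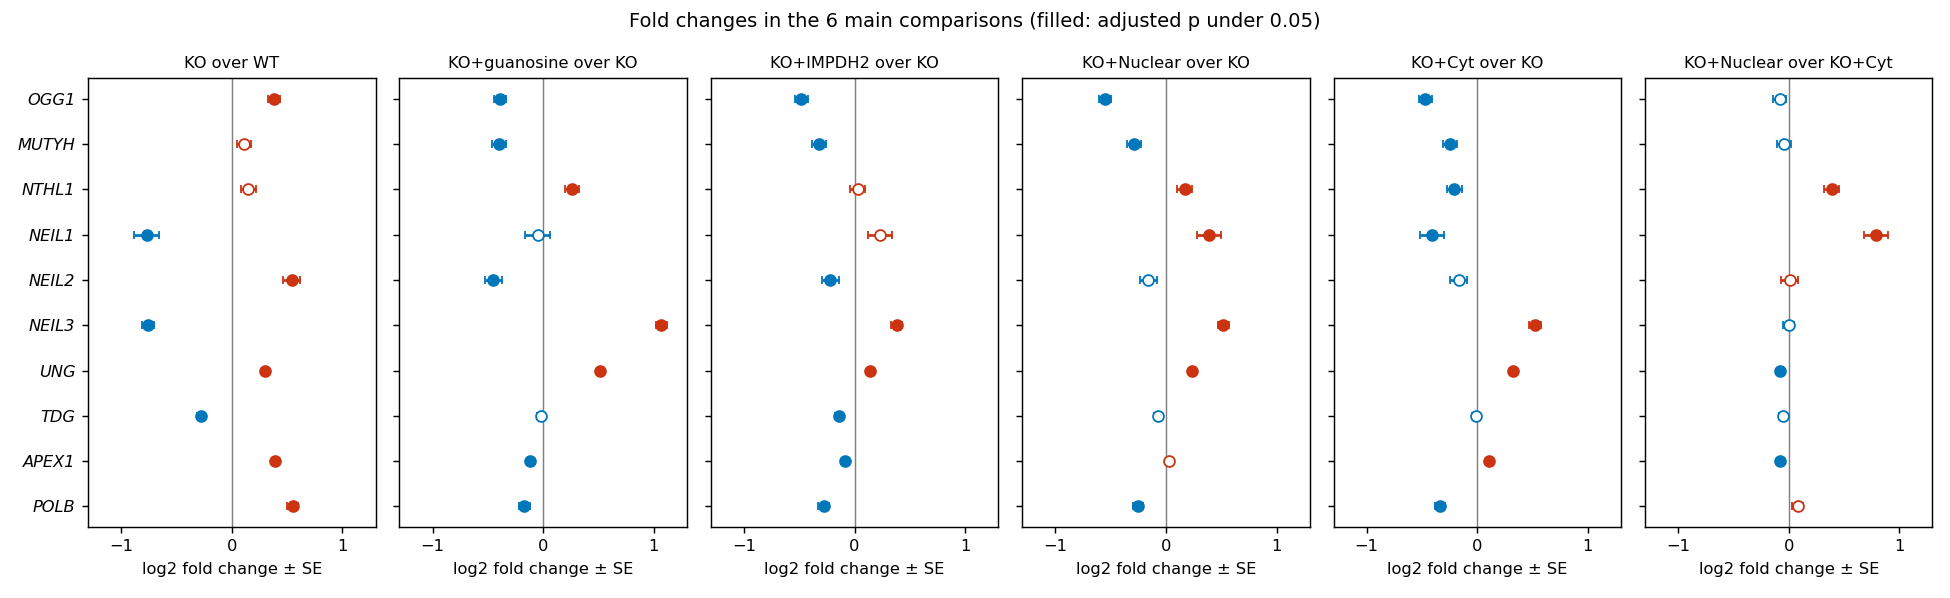
Log2 fold change of each gene with its SE in the 6 main comparisons, with filled points for an adjusted p under 0.05. NEIL3 in KO+guanosine over KO (1.07) and NEIL1 in KO+Nuclear-IMPDH2 over KO+Cyt-IMPDH2 (0.79) have the highest values.

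Counted over the 10 genes, calls are set beside the share of all tested genes called the same way, and nothing particular to the set is read from them. In KO over WT, 5 genes were higher (OGG1, NEIL2, UNG, APEX1 and POLB), where 35.9% of all tested genes were, and 3 were lower (NEIL1, NEIL3 and TDG), where 36.8% were. In KO+guanosine over KO, 3 were higher (NEIL3, UNG and NTHL1) against a background of 27.3%, and 5 were lower (OGG1, MUTYH, NEIL2, APEX1 and POLB) against 29.2%. In KO+IMPDH2 over KO, 2 were higher against 25.7% and 6 were lower against 25.1%. In KO+Nuclear-IMPDH2 over KO, 4 were higher against 26.1% and 3 were lower against 26.9%. In KO+Cyt-IMPDH2 over KO, 3 were higher against 24.6% and 5 were lower against 26.0%. The 4 comparisons with KO share its 3 libraries. The median log2 change of the 10 genes was 0.23 in KO over WT, -0.09 with guanosine, -0.12 in KO+IMPDH2, -0.02 in KO+Nuclear-IMPDH2 and -0.19 in KO+Cyt-IMPDH2 cells, beside 0.01 for all genes in the first and -0.02 in each of the others. The median absolute change was 0.38 in KO over WT, where it was 0.49 over all genes. Scaling mattered for small changes, since TMM set the median of all genes 0.16 lower than library totals did in KO over WT.

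The groups given the nuclear and cytosolic forms differed for 4 of the 10 genes, where 23.9% of all tested genes differed in either direction. IMPDH2 itself was at 297 ± 13 CPM in KO+Nuclear-IMPDH2 and 379 ± 14 in KO+Cyt-IMPDH2 cells (log2 -0.35, adjusted p = 1.33e-07). Its form and its level therefore cannot be told apart here. In KO+Nuclear-IMPDH2 over KO+Cyt-IMPDH2, 2 of the 10 genes were higher (NEIL1 and NTHL1), where 13.4% of all genes were, and 2 were lower (UNG and APEX1), where 10.5% were. NEIL1 averaged 4.69 ± 0.2 CPM in KO+Nuclear-IMPDH2 and 2.71 ± 0.13 in KO+Cyt-IMPDH2 cells (log2 0.79, SE 0.11, adjusted p = 4.54e-05), a change larger in absolute size than that of 93.8% of tested genes. With coding transcripts alone it was 0.72 and did not pass (adjusted p = 0.232), nor did it with the length offset (0.52, adjusted p = 0.392). NTHL1 averaged 17.8 ± 0.86 CPM in KO+Nuclear-IMPDH2 and 13.6 ± 1.1 in KO+Cyt-IMPDH2 cells (log2 0.39, SE 0.067, adjusted p = 0.000354), without overlap. UNG averaged 153 ± 1.9 CPM in KO+Nuclear-IMPDH2 and 161 ± 3.6 in KO+Cyt-IMPDH2 cells (log2 -0.08, SE 0.025, adjusted p = 0.0317), and APEX1 243 ± 0.63 and 257 ± 3.9 (log2 -0.08, SE 0.022, adjusted p = 0.0136).

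Both of these small calls were fragile. That of UNG was lost without any of the 3 KO+Nuclear-IMPDH2 libraries (-0.08, -0.07 and -0.08, adjusted p = 0.0875, 0.119 and 0.0501) and without KO+Cyt-IMPDH2 replicate 2 (-0.06, adjusted p = 0.154) or 3 (-0.08, adjusted p = 0.0632). That of APEX1 was lost without KO+Cyt-IMPDH2 replicate 2 (-0.07, adjusted p = 0.0685). With no filter they had adjusted p of 0.19 and 0.146, with the 6 compared libraries alone 0.0825 and 0.0511, with coding transcripts alone 0.0542 and 0.0738, and with the length offset 0.395 and 0.147 (UNG first). The other 6 genes differed by -0.08 to 0.08 on the log2 scale and were not called, among them NEIL3 at 0.00 (SE 0.051). OGG1 passed with the length offset alone, at -0.48 (adjusted p = 0.0122).

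Set against WT, 7 to 10 of the 10 genes differed in each treated group. In KO+IMPDH2 over WT, 5 were higher and 4 were lower, beside 31.1% and 33.4% of all genes. In KO+Nuclear-IMPDH2 over WT, 5 were higher and 5 were lower, beside 31.5% and 33.6%. In KO+Cyt-IMPDH2 over WT, 4 were higher and 3 were lower, beside 32.9% and 34.7%. In KO+guanosine over WT, 5 were higher and 3 were lower, beside 31.1% and 32.9%. UNG, APEX1 and POLB were higher than WT in all 4 treated groups, and NEIL1 and TDG were lower than WT in all 4. NEIL1's calls against WT did not pass with coding transcripts alone in any of the 4 groups (adjusted p = 0.0666, 0.68, 0.056 and 0.0808 in the order above), and with the length offset 3 of them did not (adjusted p = 0.165 in KO+IMPDH2, 0.242 in KO+Nuclear-IMPDH2 and 0.0708 in KO+guanosine cells). POLB's in the groups given IMPDH2 did not pass with the length offset (adjusted p = 0.0532, 0.0654 and 0.126). MUTYH was lower than WT in KO+IMPDH2 (log2 -0.21), KO+Nuclear-IMPDH2 (log2 -0.18) and KO+guanosine cells (log2 -0.29), and with coding transcripts alone the first 2 turned to 0.18 and 0.11, neither called. The call in KO+IMPDH2 was also lost with library totals (-0.13, adjusted p = 0.0885) and without WT replicate 1 (-0.15, adjusted p = 0.0702) or KO+IMPDH2 replicate 1 (-0.17, adjusted p = 0.0581). That in KO+Nuclear-IMPDH2 was lost with library totals (-0.10, adjusted p = 0.188) and without WT replicate 1 (-0.12, adjusted p = 0.152) or replicate 1 (-0.17, adjusted p = 0.0597) or 3 (-0.13, adjusted p = 0.136) of its own group. In KO+guanosine cells the length offset gave 0.05 (adjusted p = 0.826). In KO+Cyt-IMPDH2 cells MUTYH was at -0.14 (adjusted p = 0.0624), which passed without WT replicate 3 (-0.17, adjusted p = 0.0393). NTHL1 was higher than WT in KO+IMPDH2 (log2 0.18), KO+Nuclear-IMPDH2 (log2 0.33) and KO+guanosine cells (log2 0.41), and the first was lost without WT replicate 2 (0.15, adjusted p = 0.104) or KO+IMPDH2 replicate 2 (0.18, adjusted p = 0.0564), and was 0.30 with coding transcripts alone. APEX1 was above WT by a log2 of 0.29 in KO+IMPDH2 and 0.27 in KO+guanosine cells, or 0.44 and 0.41 with the length offset. NEIL3 was lower than WT in the 3 groups given IMPDH2 (log2 -0.37, -0.24 and -0.24) and higher with guanosine (log2 0.31, SE 0.05, adjusted p = 2.93e-05). OGG1 differed from WT in KO+Nuclear-IMPDH2 cells (log2 -0.17, adjusted p = 0.0171), a call lost with library totals (-0.09, adjusted p = 0.195), with coding transcripts alone (-0.06, adjusted p = 0.463) and without any single KO+Nuclear-IMPDH2 library or WT replicate 1 or 3, at -0.09 to -0.16 (adjusted p between 0.0534 and 0.188). In KO+IMPDH2 and KO+Cyt-IMPDH2 cells its differences from WT were -0.10 (adjusted p = 0.145) and -0.09 (adjusted p = 0.197), and passed without WT replicate 2, at -0.16 (adjusted p = 0.0275) and -0.14 (adjusted p = 0.0389). With the length offset the value in KO+IMPDH2 was -0.38 (adjusted p = 0.00784) and that in KO+Nuclear-IMPDH2 -0.36 (adjusted p = 0.0126).

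Between the treated groups, UNG, NEIL3 and NEIL2 differed between guanosine and each form of IMPDH2. In KO+IMPDH2 over KO+guanosine, 1 of the 10 genes was higher and 4 were lower, where 37.6% of all genes differed in either direction. In KO+Nuclear-IMPDH2 over KO+guanosine 3 were higher and 3 were lower, beside 37.3%, and in KO+Cyt-IMPDH2 over KO+guanosine 2 were higher and 5 were lower, beside 43.1%. NEIL3 was lower than with guanosine in each (log2 -0.68, -0.55 and -0.55), and so was UNG (log2 -0.37, -0.27 and -0.19). NEIL2 was higher than with guanosine in each (log2 0.23, 0.29 and 0.28, adjusted p = 0.0268, 0.00687 and 0.00737). In KO+IMPDH2 over KO+Nuclear-IMPDH2, 0 genes were higher and 2 were lower (UNG, log2 -0.10, and APEX1, log2 -0.12), beside 12.0%. In KO+IMPDH2 over KO+Cyt-IMPDH2, 2 were higher (NTHL1, log2 0.24, and NEIL1, log2 0.64) and 3 were lower (UNG, TDG and APEX1), beside 24.2%.

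Of 34 other genes of base excision repair, 14 were higher and 15 lower in KO than in WT cells, beside 35.9% and 36.8% of all tested genes. In KO+guanosine over KO cells, 20 were higher and 7 lower, beside 27.3% and 29.2%. Among them, the 16 long-patch genes, which are largely replication genes, had 2 higher and 11 lower in KO over WT, and 14 higher and 2 lower with guanosine. The 5 end-processing genes had 4 higher and 1 lower in KO over WT, and 0 higher and 2 lower with guanosine. The 3 other glycosylases had 2 higher and 1 lower in KO over WT, and 1 higher and 2 lower with guanosine, and the 4 genes of the oxidised nucleotide pool had 2 higher and 1 lower, and 1 higher and 0 lower. Differences between these lists were not tested. Over KO, 12, 13 and 13 of the 16 long-patch genes were higher in KO+IMPDH2, KO+Nuclear-IMPDH2 and KO+Cyt-IMPDH2 cells. In that order, 25.7%, 26.1% and 24.6% of all tested genes were higher. In the same order 2, 2 and 1 of the 16 were lower, beside 25.1%, 26.9% and 26.0% of all tested genes. The median log2 change of the 16 was -0.19 in KO over WT and 0.43 with guanosine, beside 0.01 and -0.02 over all genes. The median in KO over WT is close in size to the 0.16 by which TMM scaling lowered all genes there against library totals. These genes moved together with the S-phase markers above, and the part of cycling was not tested.

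FEN1, the flap endonuclease, had 113 ± 3.8 CPM in KO and 203 ± 3.3 in WT cells (log2 -0.85, adjusted p = 4.1e-15). With guanosine it had 250 ± 3.1 CPM, against 113 ± 3.8 in KO cells (log2 1.14, adjusted p = 5.29e-16). PCNA, the polymerase clamp, had 106 ± 4.2 CPM in KO and 198 ± 3.0 in WT cells (log2 -0.90, adjusted p = 2.46e-12). LIG1, the ligase of this branch, had 89.2 ± 2.4 CPM with guanosine and 47.3 ± 0.35 in KO cells (log2 0.91, adjusted p = 6.58e-14). The opposite pattern was seen in SMUG1, a second uracil glycosylase, with 18.3 ± 0.56 CPM in KO and 11.2 ± 0.53 in WT cells (log2 0.71, adjusted p = 1.03e-09). It had 13.2 ± 0.53 CPM with guanosine, against 18.3 ± 0.56 in KO cells (log2 -0.47, adjusted p = 5.83e-07). POLD4, the small subunit of polymerase delta, likewise had 39.8 ± 2.5 CPM in KO and 27.0 ± 1.7 in WT cells (log2 0.56, adjusted p = 2.03e-07), and 21.5 ± 1.2 with guanosine (log2 -0.88 over KO, adjusted p = 1.35e-09).

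Short-patch partners did not move together. XRCC1, the scaffold that binds POLB, had 17.7 ± 0.65 CPM in KO and 20.7 ± 0.25 in WT cells, LIG3, its ligase, 41.3 ± 2.0 and 41.9 ± 0.81, and POLL, a gap-filling polymerase related to POLB, 33.2 ± 0.51 and 25.6 ± 2.1. Of these 3 genes, 1 was higher and 1 lower in KO over WT, beside 35.9% and 36.8% of all tested genes. The 3 genes PARP1, PARP2 and PARG were all called higher in KO over WT, where 35.9% of all tested genes were. They were again called higher over KO in KO+guanosine and each group given IMPDH2, where 24.6 to 27.3% of all tested genes were. PARP1, which binds strand breaks left during repair, had 352 ± 2.5 CPM in KO+IMPDH2, 377 ± 8.5 in KO+Nuclear-IMPDH2, 364 ± 11 in KO+Cyt-IMPDH2, 406 ± 0.82 in KO+guanosine, 271 ± 9.2 in KO and 251 ± 1.4 in WT cells. PARP2 differed between 2 of these groups, with 87.3 ± 0.12 CPM in KO+Nuclear-IMPDH2 and 99.7 ± 6.4 in KO+Cyt-IMPDH2 cells (log2 -0.19, adjusted p = 0.000917). PARP2 is among the neighbours of APEX1 described below, and APEX1 differed the same way between those groups (log2 -0.08). In KO+guanosine over KO their signs were opposite, at 0.20 for PARP2 and -0.12 for APEX1.

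Position along the chromosome was set beside each gene's change, with GENCODE 29 positions on GRCh38. APEX1 (chr14:20455191-20457772, plus strand) had changes over WT close to the median of its neighbours. In KO over WT its log2 change was 0.39, and the median of the 16 tested coding genes within 10 places on either side was 0.39 as well, though these ran from -0.72 to 4.18 and 4 of them were below 0. Against WT the pairs of values were 0.29 and 0.32 in KO+IMPDH2, 0.42 and 0.38 in KO+Nuclear-IMPDH2, 0.50 and 0.50 in KO+Cyt-IMPDH2, and 0.27 and 0.30 in KO+guanosine cells, APEX1 first. These 5 comparisons share the WT libraries. Over KO, the pairs were -0.09 and -0.08 in KO+IMPDH2, 0.03 and -0.04 in KO+Nuclear-IMPDH2, 0.11 and 0.09 in KO+Cyt-IMPDH2, and -0.12 and 0.00 in KO+guanosine cells. OSGEP, among those neighbours, had 88.5 CPM in KO and 67.5 in WT cells (log2 0.39, adjusted p = 7.18e-09) and was among the 2 coding genes whose levels were most like those of APEX1 (Pearson r = 0.972 over 18 libraries). Whether gene dose differs between the lines was not tested.

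For the other genes the values were further apart. OGG1 (chr3:9749944-9788219, plus strand) had a log2 change of 0.38 in KO over WT, where the median of its 20 neighbours was -0.33 and 15 of them were below 0. MUTYH (chr1:45329163-45340470, minus strand) had 0.11, with a neighbour median of -0.46. NEIL1 (chr15:75346955-75357114, plus strand) had -0.77, with a median of 0.09. NEIL3 (chr4:177309836-177362943, plus strand) had -0.76 with -0.14, and UNG (chr12:109097574-109110992, plus strand) 0.30 with -0.07. TDG (chr12:103965804-103988874, plus strand) had -0.28 with -0.13, and NTHL1 (chr16:2039815-2047866, minus strand) 0.15 with 0.05. For NEIL2 the values were 0.54 and 0.11, and for POLB 0.55 and -0.02. Several of these genes overlap another on the opposite strand in that annotation, OGG1 with CAMK1 and TADA3, MUTYH with TOE1, NTHL1 with TSC2, NEIL1 with MAN2C1 and APEX1 with PIP4P1. The libraries were stranded, but whether the quantification used strand is not given in the sources used here.

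**Figure D5:**
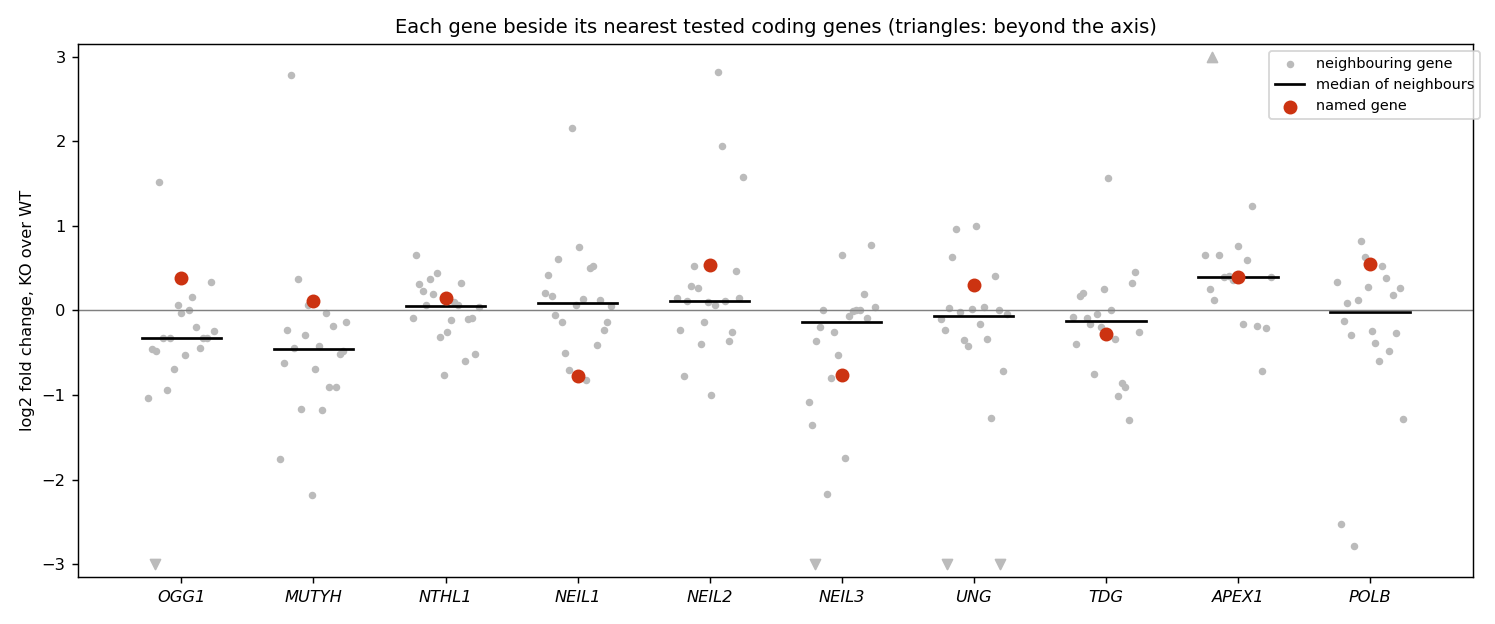
Log2 fold change in KO over WT of each gene (red) beside up to 20 neighbouring tested coding genes (grey, with a black line at their median, and triangles for genes beyond the axis). APEX1 lies on its neighbours' median of 0.39, and OGG1 (0.38) lies above a median of -0.33.

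Among coding genes, those with levels most like each member over the 18 libraries were PSMC3 and NRSN2 for NEIL3 (Pearson r = 0.977 and 0.976 on log2 CPM), GLI2 and SAMD4A for UNG (0.976 and 0.971), and EBPL for APEX1 (0.984), ahead of OSGEP. For OGG1 they were ZSWIM7 and PQBP1 (0.947 and 0.937), for POLB PMEL and PSMB9 (0.958 and 0.957), and for TDG RPL36A and CMSS1 (0.953 and 0.946). For NEIL1 they were STAT5A and ABCA2 (0.941 and 0.935), for NTHL1 RDM1 and SLC2A10 (0.925 and 0.902), for NEIL2 IFT70A and NOL6 (0.916 and 0.91), and for MUTYH MRPL24 and GTF2H2C (0.912 and 0.9). Within the set, the closest pair was NEIL2 and APEX1 (0.74), followed by OGG1 and MUTYH (0.68), and the most opposed were NEIL2 and NEIL3 (-0.80). The 18 libraries are 6 groups of 3, so these values describe shared differences between groups.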

How the data were processed

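RNA from 18 libraries, 3 in each of 6 groups taken from the sample titles, was measured by TruSeq stranded mRNA sequencing, per the labels. The deposited tables hold the authors' expected (estimated) counts and TPM per transcript from Salmon 1.10.0, after Trim Galore 0.6.10, with the genome given as hg19, per the submitters' processing notes. Of the deposited transcript identifiers, 80.0% are in GENCODE 29, which gave all gene positions (GRCh38). How Salmon was set is not given in the sources used here.

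Deposited estimated counts were summed to genes and rounded, since 32.3% of transcript values were not whole (tolerance 0.001). CPM was computed from the deposited counts. All 18 libraries entered 1 edgeR 4.0.16 fit (R 4.3.3) with TMM scaling, filterByExpr (19252 genes kept) and the quasi-likelihood test, Benjamini-Hochberg adjusted within each of 10 comparisons and 5 further contrasts used to order the groups. Replicates differed beyond counting noise (chi-square per degree of freedom 3.53 to 8.01). Shares of transcripts carry no test, since Salmon's own uncertainty was not used here. The fit was tested on simulated data.

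The named genes are all 10 members, IMPDH2 and IMPDH1, up to 3 partner genes in each direction per main comparison, and the 2 coding genes most like each member, of which the text gives a selection. XRCC1, LIG3, POLL and PARP1 were named after their values were seen. Members, lists and tests were chosen with earlier results of these data known. Alternatives were DESeq2 1.42.0 (its size factors and its Wald test), library totals, no filter, a replicate block, the compared libraries alone, a transcript-length offset, coding transcripts alone, the per-sample files, and each library left out. Tables were joined and plots drawn in Python 3.11.15 (numpy 2.4.6, pandas 2.3.3; matplotlib 3.10.9 for the plots).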

Additional observations from a re-analysis of the deposited data

Results flagged for a closer look

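Results below stand out because a gene responded differently to separate treatments of the same KO cells, by a direct test between the treated groups in edgeR's quasi-likelihood fit. NEIL1 differed between KO+Nuclear-IMPDH2 and KO+Cyt-IMPDH2 by a log2 of 0.79 (adjusted p = 4.54e-05), at 0.39 and -0.41 over KO, and the coding transcripts alone gave 0.72 (adjusted p = 0.232). NTHL1 differed between the same groups by 0.39 (adjusted p = 0.000354), at 0.17 and -0.21 over KO. It also differed between KO+Cyt-IMPDH2 and KO+guanosine by -0.47 (adjusted p = 1.82e-05), at -0.21 and 0.26 over KO. APEX1 differed between KO+IMPDH2 and KO+Cyt-IMPDH2 by -0.20 (adjusted p = 3.45e-06), at -0.09 and 0.11 over KO, and between KO+Cyt-IMPDH2 and KO+guanosine by 0.23 (adjusted p = 2.19e-07), at 0.11 and -0.12. These APEX1 values over KO were -0.01 in KO+IMPDH2 and -0.03 in KO+guanosine with the length offset, and 0.02 in KO+Cyt-IMPDH2 with library totals, none called. Contrasts of KO+Cyt-IMPDH2 with KO+IMPDH2 or KO+guanosine were not put through the alternative settings. Between KO+Nuclear-IMPDH2 and KO+Cyt-IMPDH2, UNG differed by -0.08 (adjusted p = 0.0317), at 0.24 and 0.32 over KO, and APEX1 by -0.08 (adjusted p = 0.0136), at 0.03 and 0.11. OSGEP, a neighbour of APEX1, was close to it over KO. Its log2 changes were -0.12 in KO+IMPDH2, 0.01 in KO+Nuclear-IMPDH2, 0.13 in KO+Cyt-IMPDH2 and -0.13 in KO+guanosine cells. What sets these groups apart beyond the form of IMPDH2 or the guanosine was not tested.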

How the results depend on the processing

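Of the 100 results for single genes, all 100 kept their side of the threshold under DESeq2 size factors and the DESeq2 Wald test. They did so with the per-sample files and the replicate block too, and none of those called changed sign. Changes of sign in results called in neither fit were not counted, here or below. Replicate numbers did not pair the libraries (correlations of same-numbered deviations from -0.09 to 0.14). With the replicate block, 5 genes were called higher in KO over WT, as without it. Library totals kept 86, no filter 96, the 6 compared samples alone 96, the length offset 74 and coding transcripts alone 83. Leaving out single libraries left 561 results as they were, while 29 lost a call and 10 gained one.

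Among results called in either fit, 3 signs reversed with library totals or the length offset. These were APEX1 in KO+Nuclear-IMPDH2 over KO with library totals (-0.05), and NEIL1 in KO+Cyt-IMPDH2 over KO (0.37) and MUTYH in KO+guanosine over WT (0.05) with the length offset. With coding transcripts alone, MUTYH reversed in KO+IMPDH2 over WT (0.18) and KO+Nuclear-IMPDH2 over WT (0.11). The cause was not tested.

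Counts of the 10 genes called moved by over 1.5 times as follows. With library totals, 1 was higher in KO+IMPDH2 over KO, 6 lower in KO+Nuclear-IMPDH2 over KO and 3 lower in KO+Nuclear-IMPDH2 over WT. With the length offset, the lower calls numbered 1 in KO+guanosine, 3 in KO+IMPDH2, 1 in KO+Nuclear-IMPDH2 and 3 in KO+Cyt-IMPDH2 over KO, 1 in KO+guanosine and 3 in KO+Nuclear-IMPDH2 over WT, and KO+Nuclear-IMPDH2 over KO+Cyt-IMPDH2 had 1 higher and 1 lower. With coding transcripts alone, 2 were higher in KO+Nuclear-IMPDH2 over KO, 1 was higher in KO+Nuclear-IMPDH2 over KO+Cyt-IMPDH2, and 2 were lower in KO+IMPDH2 over WT and 2 in KO+Nuclear-IMPDH2 over WT. Lower calls in KO+Nuclear-IMPDH2 over KO+Cyt-IMPDH2 were 0 with coding transcripts alone, 0 with no filter and 0 with the 6 compared samples alone, where edgeR still gave 2 at an unadjusted p under 0.05 in each and the DESeq2 Wald test on all libraries gave 2. Leaving out single libraries, they numbered 0 to 2, and the lower calls in KO+Nuclear-IMPDH2 over WT 3 to 5.

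NEIL1 had 136 to 363 estimated counts per library, the fewest of the 10 genes. Its coding share ran from 7.5 to 27.3% over the 18 libraries, and that of MUTYH more widely, from 45.7 to 81.1%.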
